A study of Mus musculus with 12 samples.

Results

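Genes that mark Langerhans cells and conventional dendritic cells were described in the periocular skin of filaggrin-deficient mice with and without MyD88. The 10 genes were *Cd207*, *Itgae*, *Xcr1*, *Mgl2*, *Cd209a*, *Flt3*, *Zbtb46*, *Batf3*, *Irf8* and *Clec9a*. They were chosen by name, all 10 were found among the 21247 genes of the count table, and all 10 were among the 20454 genes tested. The values come from RNA-seq of periocular skin biopsies of 6-week-old BALB/c mice, with 4 libraries labelled ft/ft and 4 labelled ft/ftMyD88-/-. Mice of both groups were filaggrin-deficient, homozygous for ft, a point mutation that inactivates the epidermal protein filaggrin (*Flg*), and bred free of the matted (ma) mutation. The ft/ftMyD88-/- mice were deficient in MyD88 as well, the adaptor of toll-like receptors and IL-1 family receptors. Wildtype libraries were not analysed here, and no skin with intact filaggrin is part of the comparison. The comparison asks which of these genes differed in filaggrin-deficient skin when MyD88 was missing as well. The paper describes periocular skin inflammation in all ft/ftMyD88-/- mice by this age and no visible inflammation in ft/ft mice. Inflamed skin is therefore compared with skin without visible inflammation.

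Dendritic cells take up antigen in tissue, carry it to the lymph node and present it to T cells. Langerhans cells are the resident antigen-presenting cells of the epidermis and carry langerin (*Cd207*). In the dermis, type 1 conventional dendritic cells (cDC1) depend on the transcription factors *Batf3* and *Irf8* and present antigen to CD8+ T cells, whereas type 2 conventional dendritic cells (cDC2) and related dermal cells carry C-type lectins such as *Mgl2* and *Cd209a*. *Flt3* and *Zbtb46* are shared by the conventional dendritic cell lineages. Several of the genes are not restricted to 1 cell type: langerin is also found on a part of the cDC1, *Itgae* on resident T cells, *Irf8* in B cells and macrophages, and *Mgl2* and *Cd209a* in macrophages or monocyte-derived cells.

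The ft/ft libraries held 18941705 to 29255129 counts and the ft/ftMyD88-/- libraries 15802957 to 27037997. Levels are given as CPM, read counts scaled to a common library size by edgeR's TMM method, and 3 counts, the floor under which a gene is not told from 0, were worth 0.102 to 0.183 CPM. Keratinocyte markers of the epidermis summed to at least 18335 CPM in every library, so the defining markers of skin were present. Counts of *Myd88* itself did not fall with the MyD88-/- label (41.2 ± 7.29 CPM in ft/ftMyD88-/- and 30.7 ± 4.74 CPM in ft/ft, SD, n = 4 each, log2 fold change 0.42, edgeR adjusted p = 0.0484). A gene count does not show which exons were read, and every direction below rests on the labels. The paper describes its mice as sex-matched and female, and sex-linked transcripts went against both. The ft/ft libraries had the pattern of males and the ft/ftMyD88-/- libraries that of females. *Xist* was at 0 to 0.0429 CPM in ft/ft and 34.6 to 66.8 CPM in ft/ftMyD88-/-, and the Y-linked *Ddx3y* was at 54.2 to 73.2 CPM in ft/ft and 0 to 0.482 CPM in ft/ftMyD88-/-. For every difference below, sex and genotype therefore cannot be told apart. The ma mutation lies in *Tmem79*, whose level was 3.62-fold lower in ft/ftMyD88-/- (59.2 ± 2.92 CPM in ft/ft and 16.4 ± 2.1 CPM in ft/ftMyD88-/-, SD, n = 4 each, edgeR adjusted p = 5.08e-07).

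Promoter sequences were available from RefSeq (GRCm38.p6) for 9 of the 10 genes, with 2 for *Irf8* and none for *Itgae*. They were searched on both strands for 10 motifs of factors known in dendritic cells, chosen with results of these data known. One composite, GAAA directly followed by TGANTCA, an IRF half-site beside an AP-1 site as bound by BATF and IRF proteins, was found in 41 of 32851 promoters, or 0.125%. Among these genes it was found for *Cd207* and *Zbtb46*, and the same 11 letters, TGACTCATTTC, stood in both. In *Cd207* the match starts 7 bases before the annotated start and runs across it, and in *Zbtb46* it lies 61 to 51 bases before it. The *Zbtb46* entry is that of a start inside the gene, downstream of the gene's outer 5′ end. The composite contains the AP-1 motif TGANTCA, which alone was in 7.81% of promoters and, among these genes, only in those of *Cd207* and *Zbtb46*. A second composite, GGAA and GAAA separated by any 2 bases, an ETS half-site beside an IRF half-site, was in 2.72% of all promoters and among these genes for *Cd209a*, where it ends at the start. The windows are shown from 200 bases before the start to 20 after it, on the strand of the gene, with the composite in capitals. They lie at chr6:83677838-83678057 (*Cd207*), chr2:181424369-181424588 (*Zbtb46*) and chr8:3748965-3749184 (*Cd209a*), each on the minus strand of GRCm38.p6.
Cd207: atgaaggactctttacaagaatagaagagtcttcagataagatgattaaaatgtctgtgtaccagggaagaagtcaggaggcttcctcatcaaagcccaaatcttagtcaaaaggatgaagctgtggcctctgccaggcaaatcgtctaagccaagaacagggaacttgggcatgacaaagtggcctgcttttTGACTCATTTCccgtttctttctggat
Zbtb46: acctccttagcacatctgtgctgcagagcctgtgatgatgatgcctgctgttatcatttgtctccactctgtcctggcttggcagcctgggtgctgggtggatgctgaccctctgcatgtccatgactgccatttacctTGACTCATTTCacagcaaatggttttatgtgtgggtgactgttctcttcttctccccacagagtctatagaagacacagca
Cd209a: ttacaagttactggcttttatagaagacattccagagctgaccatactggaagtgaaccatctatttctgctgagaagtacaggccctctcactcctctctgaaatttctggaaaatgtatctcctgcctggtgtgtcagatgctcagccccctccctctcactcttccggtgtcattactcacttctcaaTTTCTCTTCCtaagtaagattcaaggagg
The shorter ETS motif AGGAAG was in the promoters of *Batf3*, *Cd207*, *Cd209a*, *Mgl2* and *Xcr1*, against 35.4% of all promoters, and in *Cd209a* it overlaps the composite. The IRF pair GAAA-NN-GAAA (3.44% of all promoters), TTTC and TGANTCA separated by 4 bases (0.119%), GAGG followed by AAGT (PU.1, 3.2%), TGTGGT (RUNX, 16.8%), TGAC followed by GTCA (CRE, 1.79%) and GGG and TTCC separated by 3 bases (NF-kB, 5.56%) were in none of these promoters. The promoters of *Batf3* and *Irf8* were the richest in G and C, at 75.7% and, for the upstream start of *Irf8*, 70%, while those of the other genes with a promoter entry ranged from 37% (*Clec9a*) to 61% (*Flt3*). A match describes letters in a window and does not show that a factor binds there.

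In all, 6 of the 10 genes were higher in ft/ftMyD88-/- at an adjusted p under 0.05, and none was lower. They were *Irf8*, *Batf3*, *Xcr1*, *Cd207*, *Itgae* and *Zbtb46*, with fold changes from 1.46 to 2.32. *Clec9a*, *Flt3*, *Cd209a* and *Mgl2* did not pass, and 1 of these 4 (*Clec9a*) had an unadjusted p under 0.05. Among all tested genes, the quasi-likelihood test of edgeR, adjusted by Benjamini-Hochberg, called 10.9% higher and 12.3% lower in ft/ftMyD88-/-, or 23.3% in either direction. The groups did not overlap in CPM, with every ft/ftMyD88-/- library above every ft/ft library, for the same 6 genes and for 12.5% of all tested genes. The median log2 fold change of the 10 genes was 0.61, beside 0.013 over all tested genes, and 9 of the 10 were above 0. In whole skin, more cells of a type and more RNA per cell cannot be told apart.

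**Figure D1:**
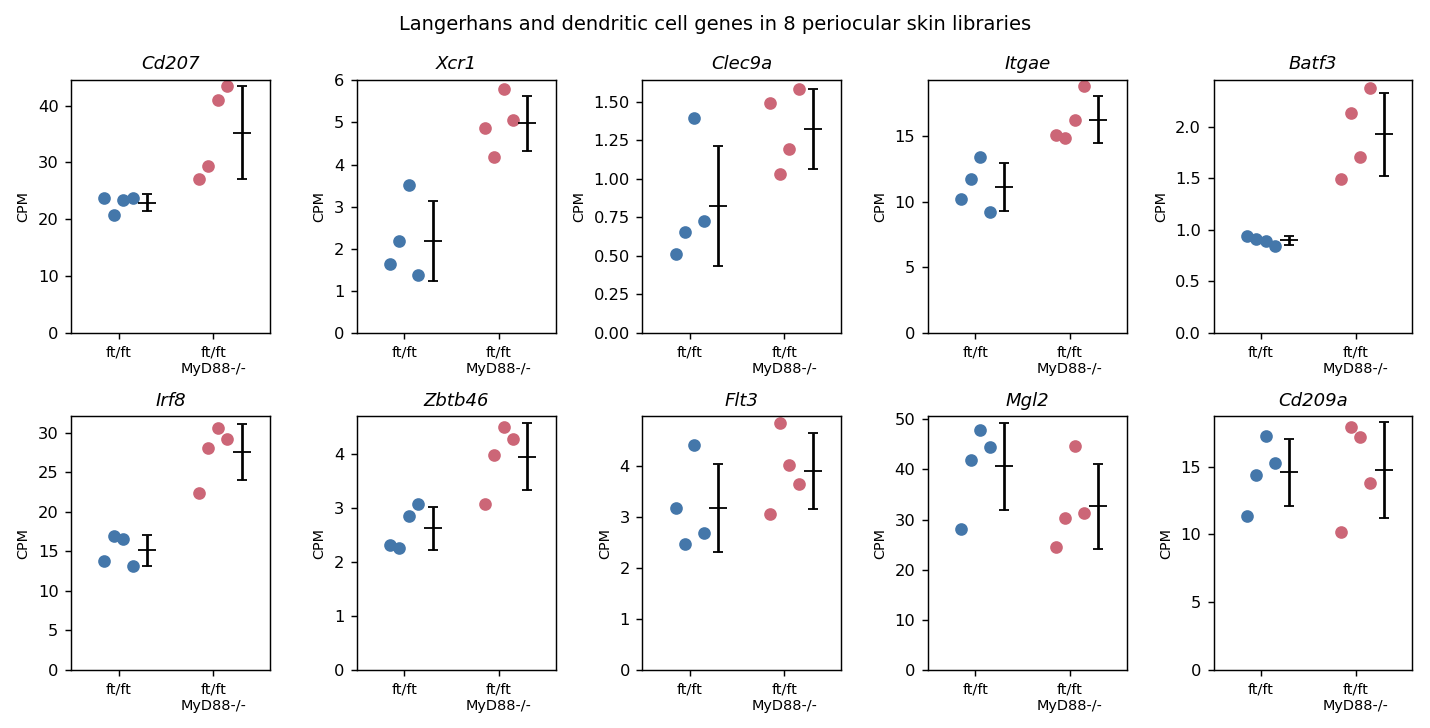
CPM of each of the 10 genes (vertical axes, starting at 0) in the 4 ft/ft libraries (blue) and the 4 ft/ftMyD88-/- libraries (red), with 1 point per library and mean ± SD beside each group. *Cd207*, *Xcr1*, *Itgae*, *Batf3*, *Irf8* and *Zbtb46* do not overlap between the groups, and *Clec9a*, *Flt3*, *Mgl2* and *Cd209a* do.

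*Cd207* encodes langerin, the lectin of Birbeck granules in Langerhans cells (GRCm38.p6 chromosome 6, 83671207 to 83677857, minus strand). In ft/ft its level was 23.7, 20.7, 23.5 and 23.7 CPM in replicates 1 to 4, and in ft/ftMyD88-/- it was 27.2, 29.4, 40.9 and 43.4 CPM. The ft/ft libraries lay close together, and the ft/ftMyD88-/- libraries were all above them but split into a lower and a higher pair. The difference was 1.54-fold (log2 fold change 0.62 with a standard error of 0.15, edgeR adjusted p = 0.00984). With each library left out in turn it stayed between 0.51 and 0.73 on the log2 scale and the adjusted p stayed under 0.05, at most 0.029.

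Among the cDC1 genes, the surface receptor, the transcription factors and the integrin were called and the remaining receptor was not. *Xcr1* is the chemokine receptor that marks cDC1 (chromosome 9, 123852315 to 123862029, minus strand). It was at 1.63, 2.18, 3.51 and 1.38 CPM in ft/ft and 4.86, 4.19, 5.78 and 5.06 CPM in ft/ftMyD88-/-. Replicate 3 stood highest in ft/ft and was still below every ft/ftMyD88-/- library. This was the largest fold change of the 10 genes, 2.32-fold (log2 fold change 1.21 with a standard error of 0.26, edgeR adjusted p = 0.00584), resting on 36 to 63 counts per library in ft/ft and 83 to 170 in ft/ftMyD88-/-.

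*Clec9a*, the cDC1 receptor for dead cells (chromosome 6, 129408862 to 129424764, plus strand), was at 0.514, 0.655, 1.39 and 0.729 CPM in ft/ft and 1.49, 1.03, 1.19 and 1.59 CPM in ft/ftMyD88-/-. The groups overlapped through ft/ft replicate 3, and the log2 fold change of 0.70 (standard error 0.32) did not pass (edgeR adjusted p = 0.13). Of the 8 fits without 1 library, *Clec9a* passed only in that without ft/ft replicate 3, its highest ft/ft library (1.04, edgeR adjusted p = 0.0292). *Clec9a* overlaps *Clec1b* on the same strand, and 4.02% of the 50-base windows of its exons also occur in *Clec1b*, so its counts are uncertain to that extent.

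*Batf3*, the AP-1 family factor without which cDC1 do not form (chromosome 1, 191098414 to 191108943, plus strand), was at 0.943, 0.909, 0.892 and 0.844 CPM in ft/ft and 1.49, 2.13, 1.7 and 2.38 CPM in ft/ftMyD88-/-. It was nearly level among ft/ft libraries and at least 1.49 CPM in the other group. The difference was 2.13-fold (log2 fold change 1.09 with a standard error of 0.23, edgeR adjusted p = 0.0051). *Irf8*, the interferon regulatory factor that specifies cDC1 (chromosome 8, 120736358 to 120756694, plus strand), was at 13.8, 17, 16.6 and 13.1 CPM in ft/ft and 22.4, 28.1, 30.6 and 29.3 CPM in ft/ftMyD88-/-. It had the smallest adjusted p of the 10 genes, with a 1.83-fold difference (log2 fold change 0.87 with a standard error of 0.13, edgeR adjusted p = 7.04e-04).

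*Itgae* encodes CD103, the integrin that binds E-cadherin (chromosome 11, 73090505 to 73147449, plus strand). It was at 10.2, 11.7, 13.4 and 9.2 CPM in ft/ft and 15.1, 14.8, 16.2 and 18.8 CPM in ft/ftMyD88-/-. The highest ft/ft library, replicate 3, and the lowest ft/ftMyD88-/- library, replicate 2, lay close to each other without overlap. The difference was 1.46-fold (log2 fold change 0.55 with a standard error of 0.14, edgeR adjusted p = 0.0128), the smallest of the 6 called.

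Of the pair shared by conventional dendritic cells, 1 gene passed. *Zbtb46*, a zinc finger factor of the conventional dendritic cell lineage (chromosome 2, 181371009 to 181493262, minus strand), was at 2.31, 2.25, 2.84 and 3.07 CPM in ft/ft and 3.07, 3.97, 4.49 and 4.27 CPM in ft/ftMyD88-/-. ft/ft replicate 4 and ft/ftMyD88-/- replicate 1 all but met, at a rounded 3.07 CPM each. The 1.51-fold difference (log2 fold change 0.59 with a standard error of 0.19, edgeR adjusted p = 0.0368) lost its call in 6 of the 8 fits that each left out 1 library, those without ft/ft replicate 1, 2 or 3 and without ft/ftMyD88-/- replicate 2, 3 or 4, where the adjusted p reached 0.0884 while the log2 fold change stayed between 0.53 and 0.63. *Flt3*, the receptor for the growth factor on which conventional dendritic cells depend (chromosome 5, 147330741 to 147400489, minus strand), was at 3.17, 2.47, 4.41 and 2.68 CPM in ft/ft and 3.07, 4.85, 4.01 and 3.66 CPM in ft/ftMyD88-/-. The groups overlapped, and the log2 fold change of 0.31 (standard error 0.22) did not pass (edgeR adjusted p = 0.333).

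Neither lectin of dermal cells passed. *Mgl2*, the C-type lectin CD301b (chromosome 11, 70130125 to 70137542, plus strand), was at 28.1, 42, 47.9 and 44.6 CPM in ft/ft and 24.5, 30.4, 44.6 and 31.2 CPM in ft/ftMyD88-/-. It was the only one of the 10 genes with a mean below that of ft/ft, at a log2 fold change of -0.31 and a standard error of 0.20 (edgeR adjusted p = 0.299), and replicate 1 was lowest in both groups. Its exons share 13.1% of their 50-base windows with other genes, mostly the paralog *Clec10a*, so reads of the pair may have been divided or dropped in counting. *Cd209a*, a mouse homolog of DC-SIGN (chromosome 8, 3743395 to 3748984, minus strand), was at 11.4, 14.4, 17.3 and 15.3 CPM in ft/ft and 10.2, 17.9, 17.2 and 13.8 CPM in ft/ftMyD88-/-, and its log2 fold change of 0.02 had a standard error of 0.18 (edgeR adjusted p = 0.944), and its sign turned in 3 of the 8 fits without 1 library.

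**Figure D2:**
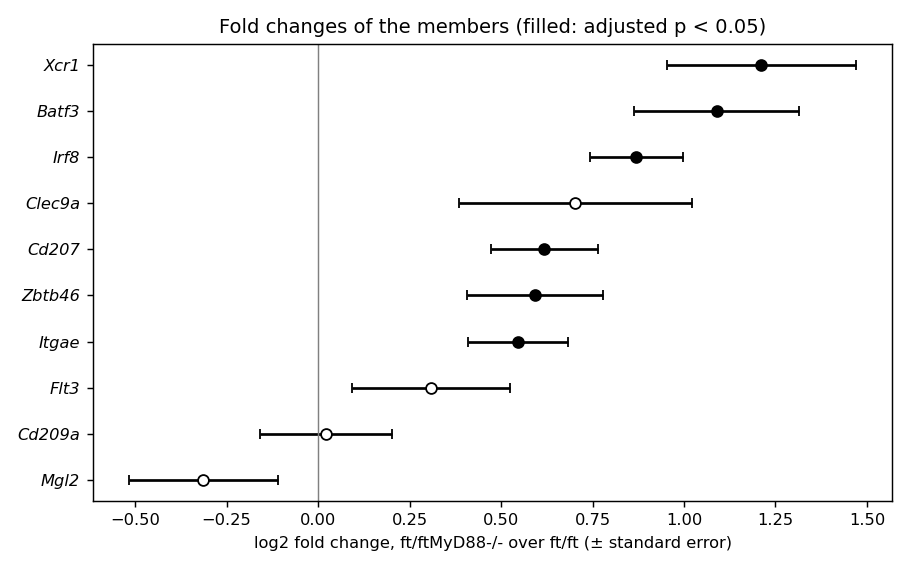
Log2 fold change of each gene, ft/ftMyD88-/- over ft/ft (horizontal axis), as a point with its standard error, filled where the edgeR adjusted p was under 0.05. *Xcr1* and *Batf3* lie above 1, *Cd209a* at 0.02 and *Mgl2* at -0.31.

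Levels were divided by exon length to set genes side by side. The order of mean levels differed between the groups, also at the top, where *Mgl2* and *Cd207* overlapped in both groups. This scaling takes reads to be spread over the exons, as in the polyA libraries of the study's methods. The labels of these libraries name Cell Ranger and a protocol for fixed tissue instead, and which description holds was not tested. In ft/ft, *Mgl2* (19.4 ± 4.15 CPM per kb of exon, SD, n = 4) and *Cd207* (15.1 ± 0.964) led and overlapped each other, followed by *Cd209a* at 9.21 ± 1.56 without overlap with *Cd207*. *Itgae* (2.42 ± 0.399) and *Irf8* (2.14 ± 0.277) overlapped. The cDC1 and lineage genes *Batf3*, *Flt3*, *Xcr1*, *Zbtb46* and *Clec9a* formed the low end, from 0.562 down to 0.25 CPM per kb, each overlapping its neighbour in that order. In ft/ftMyD88-/- *Cd207* led at 23.1 ± 5.35 CPM per kb and overlapped *Mgl2* at 15.6 ± 4.07, and *Cd209a* was at 9.32 ± 2.24. *Irf8* (3.91 ± 0.507) and *Itgae* (3.54 ± 0.394) overlapped again. *Batf3* (1.21 ± 0.252) and *Xcr1* (1.12 ± 0.147) stood at about the same level as each other, and both were above *Flt3* at 0.631 ± 0.121 without overlap.

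Ratios between subset genes within a library need no scaling between libraries. The ratio of *Cd209a* to *Xcr1* counts was lower in every ft/ftMyD88-/- library (log2 ratio 2.79, 2.71, 2.29 and 3.45 in ft/ft against 1.06, 2.09, 1.57 and 1.44). The mean difference was -1.27, with a two-sided exact permutation p of 0.0286, the smallest that 4 libraries against 4 allow, and 0.0857 after adjustment over the 3 ratios. The ratio of *Cd207* to *Cd209a* was 0.59 higher on the log2 scale (0.67 ± 0.276 in ft/ft and 1.26 ± 0.399 in ft/ftMyD88-/-, SD, n = 4 each, exact permutation p = 0.0571, adjusted 0.0857). That of *Cd207* to *Xcr1* differed by -0.68, with overlap (exact permutation p = 0.114, adjusted 0.114). No ratio passed an adjusted p of 0.05, and a single ratio at the smallest possible p adjusts to 0.0857 and cannot pass. Without ft/ft replicate 3, the library with the most *Xcr1* of its group, the differences for *Cd207* to *Xcr1* and *Cd209a* to *Xcr1* were -0.93 and -1.44 (exact permutation, adjusted p = 0.0429 for both). That library was the only one of ft/ft to overlap ft/ftMyD88-/- for *Cd207* to *Xcr1*. Leaving it out fixed that separation in advance, so no conclusion is drawn from these adjusted p.

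**Figure D3:**
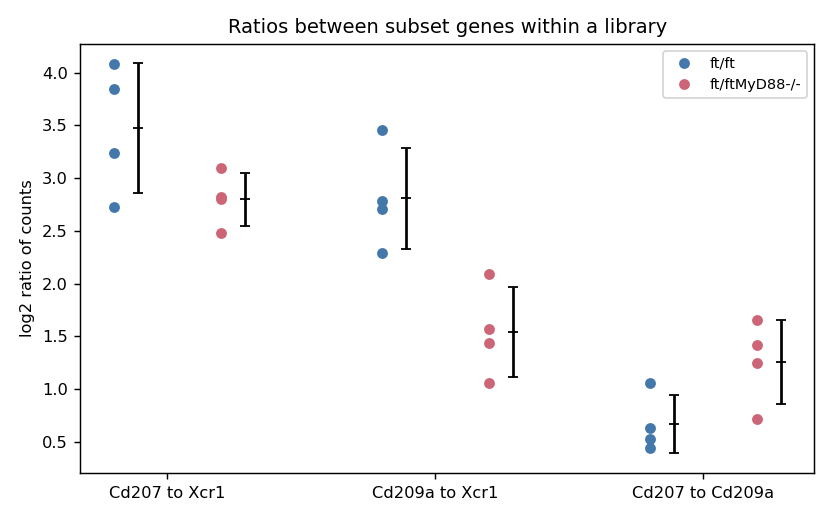
Log2 ratio of the counts of 2 genes in each library (vertical axis) for 3 pairs of genes, ft/ft in blue and ft/ftMyD88-/- in red, with mean ± SD. The libraries of the groups do not overlap for *Cd209a* to *Xcr1*, where the means are 2.81 and 1.54, and overlap for the other pairs.

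*Ptprc* (CD45), carried by all leukocytes, was itself 1.62-fold higher in ft/ftMyD88-/- (19.7, 24, 23 and 22.2 CPM in ft/ft and 30, 39.5, 39.6 and 35.1 CPM in ft/ftMyD88-/-, log2 fold change 0.70 with a standard error of 0.11, edgeR adjusted p = 0.00112). Relative to *Ptprc* within each library, 8 of the 10 genes overlapped between the groups, none was higher without overlap, and *Mgl2* and *Cd209a* were lower without overlap. The mean log2 ratio of *Mgl2* to *Ptprc* counts was 0.85 ± 0.246 in ft/ft and -0.17 ± 0.242 in ft/ftMyD88-/- (SD, n = 4 each). For *Cd209a* it was -0.62 ± 0.178 and -1.31 ± 0.185. *Cd207* (difference -0.10), *Itgae* (-0.14) and *Zbtb46* (-0.11) were near level with *Ptprc*, and *Xcr1* (0.58), *Batf3* (0.37) and *Irf8* (0.17) had higher mean ratios in ft/ftMyD88-/- and *Flt3* (-0.39) a lower one, all with overlapping libraries, as did *Clec9a* (0.06). Without ft/ft replicate 3, 2 genes, *Xcr1* and *Irf8*, were higher without overlap. That library was the only one of ft/ft to overlap ft/ftMyD88-/- for these 2 genes. Leaving it out fixed their separation in advance, so no conclusion is drawn from it. These ratios are a description, with no test, and the share of all tested genes that separate in this way was not computed. Because *Ptprc* was itself higher in ft/ftMyD88-/-, a gene of unchanged level has a lower ratio to it there.

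**Figure D4:**
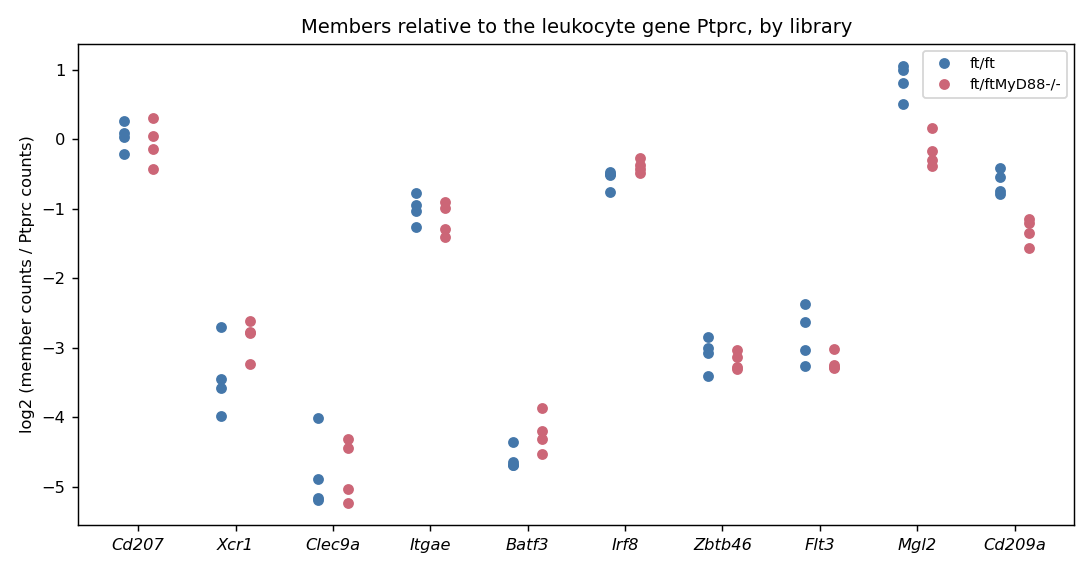
Log2 ratio of each gene's counts to *Ptprc* counts (vertical axis) in every library, ft/ft in blue and ft/ftMyD88-/- in red. *Mgl2* and *Cd209a* are lower in all 4 ft/ftMyD88-/- libraries, and the other 8 genes overlap.

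Of 75 other dendritic cell genes in 7 lists, 73 were tested, of which 12 were higher, 10 lower and 51 passed in neither direction, with a median log2 fold change of 0.12. These shares, 16.4% higher and 13.7% lower, lay near the 10.9% and 12.3% of all tested genes, so the counts are given gene by gene and not as a result about dendritic cells. The number higher was 19 without ft/ftMyD88-/- replicate 1 and 7 without replicate 2 or 4 of that group, and the number lower was 5 without ft/ft replicate 3 or without ft/ftMyD88-/- replicate 4. Among 11 other cDC1 genes, 1 was higher and 2 were lower (median 0.04). *Btla*, an inhibitory receptor of cDC1 that T and B cells also carry, was 4.74-fold higher (0.455 ± 0.219 against 2.11 ± 0.312 CPM, SD, n = 4 each, edgeR adjusted p = 6.25e-04). *Cadm1*, an adhesion molecule, and *Tlr3*, the receptor for double-stranded RNA, were lower (log2 fold change -0.35 and -0.47, edgeR adjusted p = 0.0291 and 0.0103). Both are also expressed by other skin cells. *Cadm1* lost its call in 5 of the 8 fits without 1 library (all but those without ft/ft replicate 2 or ft/ftMyD88-/- replicate 1 or 3, adjusted p at most 0.081), and with library size only as the scaling neither passed (-0.17 and -0.29, edgeR adjusted p = 0.244 and 0.0736). The abundant *Naaa* (0.21) and *Id2* (0.02) did not pass (edgeR adjusted p = 0.207 and 0.895).

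Of 15 tested cDC2 genes, *Clec4a3*, a C-type lectin receptor, was higher (log2 fold change 0.58, edgeR adjusted p = 0.0452) and *Itgax*, which encodes CD11c, was lower (-0.49, edgeR adjusted p = 0.0432). In ft/ft *Itgax* spanned 8.78 to 14.5 CPM and in the other group 7.31 to 8.78 CPM, so the groups all but met. Both calls were lost with limma voom (adjusted p = 0.0639 for *Clec4a3* and 0.0669 for *Itgax*). *Clec4a3* also lost its call in 7 of the 8 fits without 1 library, all but that without ft/ftMyD88-/- replicate 1, and *Itgax* in 6, all but those without ft/ft replicate 1 or 4, with the replicate block (edgeR adjusted p = 0.062) and with library size only (-0.31, edgeR adjusted p = 0.169). *Klf4*, also a keratinocyte factor, and *Notch2* did not pass (-0.05 and 0.25, edgeR adjusted p = 0.748 and 0.319), and *Clec4a4* was under the minimum count.

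Of the 13 genes that support or attract Langerhans cells, 2 were higher, 3 were lower and 8 passed in neither direction (median log2 fold change 0.025). *Il34*, the keratinocyte cytokine on which Langerhans cells depend, was 1.45-fold lower (30.9, 30.6, 31.9 and 28.9 CPM in ft/ft and 17, 20.7, 24.7 and 22.1 CPM in ft/ftMyD88-/-, log2 fold change -0.53, edgeR adjusted p = 0.00595) while *Cd207* was higher in the same libraries. *Cdh1*, E-cadherin, by which Langerhans cells hold on to keratinocytes, was lower (-0.41, edgeR adjusted p = 0.0113), as was the aryl hydrocarbon receptor gene *Ahr* (-0.39, edgeR adjusted p = 0.0197). With library size only as the scaling neither passed (-0.23 and -0.21, edgeR adjusted p = 0.0926 and 0.179), and *Ahr* lost its call without ft/ft replicate 3 and without ft/ftMyD88-/- replicate 1 or 4 (edgeR adjusted p at most 0.0585). Of 6 keratinocyte markers, 3 were also lower in these libraries. The part of keratinocytes in the levels of *Il34* and *Cdh1* was not tested. *Runx3*, a transcription factor of Langerhans cells and of CD8+ T cells, was 2.19-fold higher (3.51 ± 0.688 against 7.7 ± 0.587 CPM, SD, n = 4 each, edgeR adjusted p = 6.34e-04), and *Ccl20*, the ligand of CCR6, was 2.1-fold higher (1.9 ± 0.0541 against 3.98 ± 0.679 CPM, edgeR adjusted p = 0.00156). The abundant *Epcam* and *Tgfbr2* did not pass (0.02 and 0.32, edgeR adjusted p = 0.898 and 0.091).

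In the list of growth factors and receptors, *Csf2* was not analysed here and 1 of 6 tested genes passed. *Ccr2*, the receptor by which monocytes enter tissue, was 1.67-fold higher (18.5, 20.8, 21.8 and 17.9 CPM in ft/ft and 23, 40.6, 36.3 and 31.5 CPM in ft/ftMyD88-/-, edgeR adjusted p = 0.00525). *Csf2rb* and *Csf2ra*, the chains of the GM-CSF receptor, were at log2 fold changes of 0.40 and -0.06 (edgeR adjusted p = 0.0766 and 0.831).

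Mature and migrating dendritic cells express a further set. Of its 12 genes, 6 were higher, 1 was lower and 5 passed in neither direction, with a median log2 fold change of 0.63. Among all tested genes 10.9% were higher and 12.3% lower. The cytokine signalling inhibitor *Socs2* (0.78, edgeR adjusted p = 0.00163), the maturation marker *Cd83* (0.87, edgeR adjusted p = 0.00685) and the costimulatory receptor *Cd40* (0.95, edgeR adjusted p = 0.0123) had the smallest adjusted p, and *Cd80*, *Cd86* and *Fscn1* were the others. *Cacnb3* was lower (-0.26, edgeR adjusted p = 0.0362). Of the 8 fits without 1 library, *Cd80* and *Fscn1* lost their calls in 4, *Cacnb3* in 6 and *Cd86* in 7. *Cacnb3* also lost its call with library size only (-0.08, edgeR adjusted p = 0.501) and with the replicate block (edgeR adjusted p = 0.0981). The call of *Cd86* was also lost with limma voom (adjusted p = 0.0578). *Ccr7* (0.64), *Relb* (-0.28) and *Ccl22* (-0.20) did not pass (edgeR adjusted p = 0.0831, 0.0604 and 0.354). *Cd40*, *Cd83*, *Cd80* and *Cd86* are also induced in B cells and macrophages.

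None of 8 plasmacytoid dendritic cell genes was higher and 2 were lower. *Ccr9* was 3.5-fold lower (2.23 ± 0.637 against 0.657 ± 0.218 CPM, SD, n = 4 each, edgeR adjusted p = 0.00168). *Cox6a2* was 2.16-fold lower (edgeR adjusted p = 0.00267), and it is also a gene of striated muscle, whose 6 markers were all lower here. The abundant *Tcf4* and *Irf7* did not pass (log2 fold change -0.29 and -0.08, edgeR adjusted p = 0.0708 and 0.731). Of 8 genes of MHC class II presentation, *Ciita*, the class II transactivator, was higher (0.54, edgeR adjusted p = 0.0412), *Cd74*, the invariant chain, was lower (-0.48, edgeR adjusted p = 0.0217), and *H2-Ab1* and *H2-Eb1* were at 0.05 and -0.03 (edgeR adjusted p = 0.816 and 0.89). *Ciita* lost its call in 6 of the 8 fits without 1 library, all but those without ft/ft replicate 2 or ft/ftMyD88-/- replicate 1, and with limma voom (adjusted p = 0.0644). *Cd74* lost it in 3, those without ft/ft replicate 3 or ft/ftMyD88-/- replicate 1 or 4, and with library size only (-0.30, edgeR adjusted p = 0.125).

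**Figure D5:**
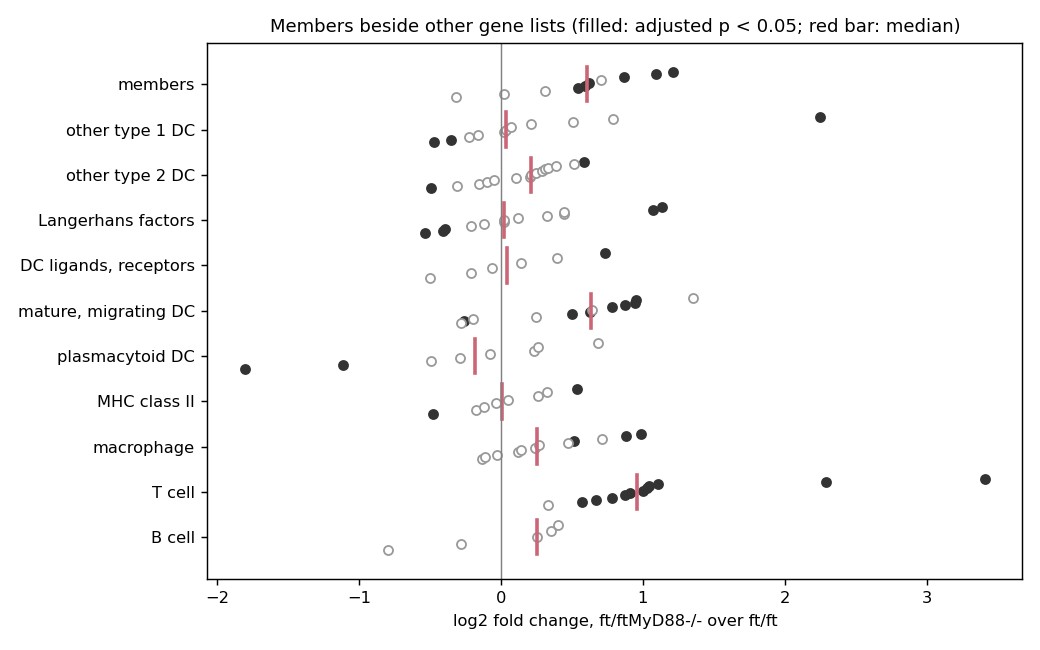
Log2 fold change, ft/ftMyD88-/- over ft/ft (horizontal axis), of every tested gene in the 10 dendritic cell genes described (top row, named members), 7 further dendritic cell lists and macrophage, T cell and B cell markers, with 1 point per gene, filled at an edgeR adjusted p under 0.05, and a red bar at each list's median. The medians are 0.61 for the 10 genes, 0.63 for mature and migrating dendritic cells, 0.96 for T cells and between -0.18 and 0.26 for the other lists.

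Markers of other cells moved with the same comparison. Of 12 T cell markers 11 were higher (median log2 fold change 0.96), and the summed level of the 12 was 118 to 173 CPM in ft/ft and 171 to 281 CPM in ft/ftMyD88-/-. Most of that sum was *Thy1*, at 92.4 to 145 CPM in ft/ft and 134 to 240 CPM in ft/ftMyD88-/-. *Thy1* lost its call in 4 of the 8 fits without 1 library. The 3 T cell markers with the smallest adjusted p were *Cd8a* (at 0 to 0.182 CPM in ft/ft and 0.745 to 1.34 CPM in ft/ftMyD88-/-, edgeR adjusted p = 9.71e-04), *Lck* (1.03, edgeR adjusted p = 0.00397) and *Cd2* (1.00, edgeR adjusted p = 0.00408). This stands beside *Itgae*, *Batf3*, *Btla* and *Runx3*, which T cells also express. Of 12 macrophage markers *C1qa*, *Fcgr1* and *Lyz2* were higher and none was lower, and their sum was 555 to 716 CPM in ft/ft and 793 to 1104 CPM in ft/ftMyD88-/-, beside *Irf8*, *Mgl2* and *Cd209a*. That separation rested on *Lyz2*, and without it the sums overlapped, at 313 to 449 and 392 to 627 CPM. *Fcgr1* lost its call in 6 of the 8 fits without 1 library and with limma voom. None of 5 tested B cell markers passed, and the defining *Ms4a1* was at 0 in at least 1 library. Their sums overlapped, at 0.643 to 2.84 CPM in ft/ft and 1.03 to 2.45 CPM in ft/ftMyD88-/-. Of 4 tested natural killer cell markers 2, *Ncr1* and *Klrk1*, were higher (sums 0.836 to 2.06 and 2.06 to 4.42 CPM). *Ncr1* rested on 1 to 6 counts per library in ft/ft. It lost its call in 6 of the 8 fits without 1 library and with the replicate block, and *Klrk1* lost its call in 2 of the 8. Of 4 tested neutrophil markers 1, *Csf3r*, was higher (sums 21.5 to 250 and 399 to 958 CPM). The call of *Csf3r* was lost in 6 of the 8 fits without 1 library and with no filter. In ft/ftMyD88-/- the sum is mostly *S100a8* and *S100a9*. In ft/ft replicates 3 and 4 it is not, as they were at 4.41 and 6.41 CPM of 29.5, and at 1.53 and 2.91 CPM of 21.5. Neither gene passed (edgeR adjusted p = 0.126 and 0.123), although every ft/ftMyD88-/- library was above every ft/ft library for both. For the sum, ft/ft replicate 2 stood apart at 250 CPM against 21.5 to 36.1 CPM in the other ft/ft libraries. All 6 muscle markers, 4 of 6 sebocyte markers and 3 of 6 keratinocyte markers were lower, with keratinocyte sums of 23289 to 30809 CPM in ft/ft and 18335 to 22628 CPM in ft/ftMyD88-/-. The part of these cells in the differences above was not tested.

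Over the 8 libraries, the profiles most like each of the 10 genes were sought among 14672 genes with a mean of at least 1 CPM, by the root mean square difference of log2 CPM centred on each gene's mean. Likeness follows the group difference as well as the libraries within a group. Nearest to *Irf8* were *Rasal3* (0.113), *Ptprc* (0.132) and *Lsp1* (0.134). *Zbtb46* was nearest to *Cd48* (0.0655), *P2ry14* and *Trim30a*, and *Batf3* to *Lat* (0.0979), *Tyms* and *Asf1b*. For *Itgae* the nearest were *Hyls1* (0.0678), *Cd52* (0.0979) and *AC137969.1*. *Xcr1* had no profile as close, with *Adamts6* at 0.183 and *Blk* at 0.217. *Cd207* was nearest to *Irak1bp1* (0.111), *Mgl2* to *Ccdc80* (0.111) and *Cd209a* to *Efemp1* (0.075), *Flt3* to *Tmem158* (0.119) and *Clec9a* to *Matn4* (0.155). None of the nearest genes was 1 of the 10.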

How the data were processed

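The authors extracted RNA from periocular skin, prepared polyA-selected TruSeq libraries, used HISAT and TopHat2 for alignment to GRCm38.p6, and deposited raw counts per gene with no normalization. HTSeq, a read counter, is named in the methods for the comparison of groups, and the counting step is not described apart from it. Aligner versions, annotation release and strand setting are not given in the sources used here. Sample labels differ from this, giving total RNA, Cell Ranger and a protocol for RNA profiling of cells from fixed tissue. Libraries were mapped by the library names in the labels, and all 8 columns were used.

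A gene was tested where its counts over the 8 libraries reached 10 in sum, using edgeR 4.0.16 in R 4.3.3 (TMM, robust quasi-likelihood test, no covariate, two-sided, Benjamini-Hochberg at 0.05). Within-library ratios had 0.5 added to each count and were compared by exact permutation. Alternatives were RLE or library size scaling, no filter or filterByExpr, DESeq2 1.42.0, limma 3.58.1 voom, the replicate number as a block and each library left out. The fit was tested on simulated data. The members and lists were chosen with earlier results of these data known. Genes named are the 10, the 3 with the smallest adjusted p in each direction of each list, its 2 most abundant genes without a call, the 3 nearest profiles and the label checks. Outside that rule, *Cd80*, *Cd86*, *Fscn1* and *Clec4a4* were named after their values were seen, so that short counts were complete. *Thy1* was also named after its values were seen, to show what a sum rests on, and so was *Ccr7*, as a gene without a call.

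Replicates of a group differed by more than counting noise, so each was counted as a replicate. The study describes 4 mice per group. The floor of 3 counts covers counting error only. The study's methods name no molecular identifiers, and whether the reads carried any was not tested. Exon lengths and shared 50-base windows come from GENCODE M21, and coordinates and promoters from RefSeq (GRCm38.p6). Same-numbered libraries did not deviate together (correlations from -0.146 to 0.0251), so the numbers did not pair them. Marker sums without *Lyz2* or without ft/ft replicate 2 were added after seeing the data. The values of 1 marker gene are not reported here.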

Additional observations from a re-analysis of the deposited data

Results flagged for a closer look

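Within a group of 4, a library was set apart where its gap to the nearest other library was too large a share of the group's range by Dixon's 95% critical value. This held in 9 of 98 groups of values examined, and chance gives about 1 in 20. Among the 10 genes the only case was *Cd207* in ft/ft, where replicate 2 was lowest at 20.7 CPM against 23.5 to 23.7 CPM in the others. In ft/ft replicate 3, *H2-Ab1* (361 CPM), *H2-Eb1* (302 CPM) and *Tcf4* (120.2 CPM) were high and *Ccr9* (1.28 CPM) was low. *Ahr* was low in ft/ft replicate 4 at 52.7 CPM. In ft/ftMyD88-/-, *Clec4a3* was low in replicate 1 (4.29 CPM), *Csf2rb* was high in replicate 2 (41.3 CPM) and *Irf7* was high in replicate 3 (19.8 CPM).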

How the results depend on the processing

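The 6 calls among the 10 genes were the same with RLE factors, library size only, no filter, filterByExpr, DESeq2, limma voom and the replicate block. Leaving out each library gave 5 to 6 called, and no gene of the 10 was called lower in any alternative. Scaling by library size only moved the median log2 fold change of all genes by 0.177 and called 4638 genes higher and 1326 lower, and 23 of the other dendritic cell genes higher and 3 lower. Under it *Klf4* (0.13), *Csf2ra* (0.12), *Irf7* (0.096) and *H2-Eb1* (0.14) turned positive. Leaving out 1 library gave 1464 (without ft/ft replicate 4) to 2260 genes higher, 7 to 19 other dendritic cell genes higher and 5 to 9 lower. In those fits log2 fold changes ran from -0.084 to 0.17 for *Cd209a*, -0.17 to 0.081 for *Csf2ra*, -0.031 to 0.064 for *Epcam*, -0.030 to 0.16 for *H2-Ab1*, -0.13 to 0.084 for *H2-Eb1*, -0.053 to 0.10 for *Id2*, -0.17 to 0.068 for *Irf7* and -0.093 to 0.0042 for *Klf4*. The log2 ratio difference ran from -0.93 to -0.47 for *Cd207* to *Xcr1* and from -1.45 to -1.06 for *Cd209a* to *Xcr1*, and 0 to 2 genes were higher relative to *Ptprc* without overlap. The cause was not tested.

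With the replicate block, 1895 genes were higher and 2144 lower, 6 of the 10 genes were higher, and 15 other dendritic cell genes were higher and 8 lower. Of 8 libraries, 1 correlated best with its own number. At the depth here, *Clec9a* was near 1 CPM and had the largest standard error of the 10 genes (0.32). *Batf3* was at a mean of 0.897 CPM in ft/ft and 1.93 CPM in ft/ftMyD88-/-. Its fold change rested on 16 to 58 counts per library, with a standard error of 0.23 beside 0.26 for *Xcr1*.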

Other observations

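Libraries of a group did not rank alike across the 10 genes. ft/ft replicate 3 was the highest of its group for *Itgae*, *Xcr1*, *Mgl2*, *Cd209a*, *Flt3* and *Clec9a*, which is 6 of 10 genes, and the lowest for none. ft/ftMyD88-/- replicate 1 was the lowest of its group for 7 genes, *Cd207*, *Mgl2*, *Cd209a*, *Flt3*, *Zbtb46*, *Batf3* and *Irf8*. In that library *Cd207* was at 27.2 CPM against 29.4 to 43.4 CPM in the others of its group, and *Irf8* at 22.4 CPM against 28.1 to 30.6 CPM.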
